A study of Rattus norvegicus with 10 samples.

Results

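The genes described are 9 serine/threonine kinases of synaptic plasticity, the 4 genes of calcium/calmodulin-dependent protein kinase II (Camk2a, Camk2b, Camk2d and Camk2g), the calmodulin-dependent kinase IV gene Camk4, and 4 protein kinase C genes, the atypical Prkcz and Prkci and the conventional Prkca and Prkcb. They were chosen by name, as the rows of the gene count table whose symbol is one of these, and all 9 of the 32545 genes in the table were found once and had enough reads to be tested. RNA-seq was done on the CA1 region of hippocampal slices of male Wistar rats of 5 to 7 weeks, in 5 groups of 2 libraries. All slices had 30 min of basal stimulation and were collected 1 h after treatment, and according to the methods each repeat combined 2 slices from 2 biological samples, so the p-values below measure the spread between such repeats. The study asked whether TTK21, a small molecule that activates the histone acetyltransferases CBP/p300, alters the response of slices to amyloid-β.

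The SKF group received the dopamine D1/D5 receptor agonist SKF alone and serves as the group without amyloid. The SKF+Aβ group received SKF with oligomers of Aβ(1–42) at 200 nM. The SKF+Aβ+CSP group had in addition the vehicle, glucose-derived carbon nanospheres (CSP), at 0.36 µg/ml. In the SKF+Aβ+CSP‐TTK21 group the nanospheres carried TTK21, at the same concentration. The CSP‐TTK21 alone group received the loaded nanospheres with neither SKF nor Aβ, so that it differs from the SKF group in both agents. An untreated group was not analysed here.

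CaMKII is among the most abundant proteins of the postsynaptic density. Calcium entering through NMDA receptors loads calmodulin, calmodulin opens the holoenzyme, and phosphorylation between neighbouring subunits then keeps it active after calcium has fallen, which is a step in the induction of long-term potentiation. CaMKIV is nuclear and phosphorylates CREB, the transcription factor that recruits CBP and p300. The conventional protein kinases C need calcium and diacylglycerol, whereas the atypical ones need neither, and the Prkcz gene also gives the constantly active PKMζ from a promoter inside the gene, a transcript that gene counts do not separate from full-length PKCζ.

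The sequences before the annotated starts are shown because CREB, the substrate of CaMKIV and partner of CBP, binds the cAMP response element (CRE). The window was the 250 bases before the RefSeq start on the GRCr8 assembly. Of the 9 genes 8 had an entry, the exception being Prkcb. The full CRE (TGACGTCA) stood in 0 of the 8 windows and in 1.59% of all 33469 promoters in the RefSeq set. The shorter CRE site (TGACG, or CGTCA on the other strand), which the full element also contains, stood in 1 of 8, in Camk2a at 150 and 92 bases before the start, and in 18.2% of all promoters. The GC box (GGGCGG or CCGCCC) stood in 6 of 8, the exceptions being Camk2a and Camk4, and in 30.5% of all. The GC content was 44.4% for Camk4, 60.4% for Camk2a and between 66.8% and 80.8% for the other 6, against a median of 51.2% over all promoters. Those of Camk2b (chr14:85147945-85148194, minus strand) and Prkcz (chr5:171212675-171212924, minus strand) are printed 5′ to 3′ in the direction of transcription, as 1 gene of each family with 5 GC boxes, with the GC boxes in capitals.
Camk2b: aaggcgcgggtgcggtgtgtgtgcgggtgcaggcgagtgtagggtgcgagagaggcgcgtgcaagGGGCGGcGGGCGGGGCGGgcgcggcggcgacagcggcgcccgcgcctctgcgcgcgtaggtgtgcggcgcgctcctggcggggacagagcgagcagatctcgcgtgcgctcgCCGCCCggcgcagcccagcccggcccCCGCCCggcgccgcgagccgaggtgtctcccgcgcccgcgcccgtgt
Prkcz: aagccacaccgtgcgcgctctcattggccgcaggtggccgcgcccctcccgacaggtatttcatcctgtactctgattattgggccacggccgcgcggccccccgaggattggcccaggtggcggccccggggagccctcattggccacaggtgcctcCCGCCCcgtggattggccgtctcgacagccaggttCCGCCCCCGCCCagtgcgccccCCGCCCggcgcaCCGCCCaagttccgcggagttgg
In both windows the GC boxes lie in overlapping, adjacent or close copies, within 185 bases of the start in Camk2b and within 92 bases in Prkcz. These matches are letters in a window; no binding was measured.

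Total counts were between 6753742 and 8473407 per library, and the counts of the 9 genes ran from 259 (Camk2d) to 16072 (Camk2a) in a library. Values are given below as normalized CPM, the count of a gene relative to the library total as scaled by TMM. Since exon lengths were not at hand, these values compare groups within a gene and not 1 gene with another. The SD between libraries of a group was 0.15 on the log2 scale for the median kinase gene and 0.21 for the median of all 15032 genes tested. Among cell type markers, Prox1 (1024 to 1772 counts) and Calb1 (729 to 1185 counts), taken here as dentate granule cell markers, were present in every library. So were the CA1 markers Wfs1 (734 to 2662 counts) and Mpped1 (1026 to 1614 counts). The CA1 marker Fibcd1 and the endothelial marker Cldn5 were listed at 0 in all 10 libraries. The endothelial markers Flt1 (240 to 691 counts) and Kdr (62 to 289 counts) were present in each. Oligodendrocyte markers summed to between 10390 and 23650 normalized CPM and differed 2.28-fold between libraries. In bulk tissue, fewer cells of a type and less RNA per cell cannot be told apart.

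**Figure D1:**
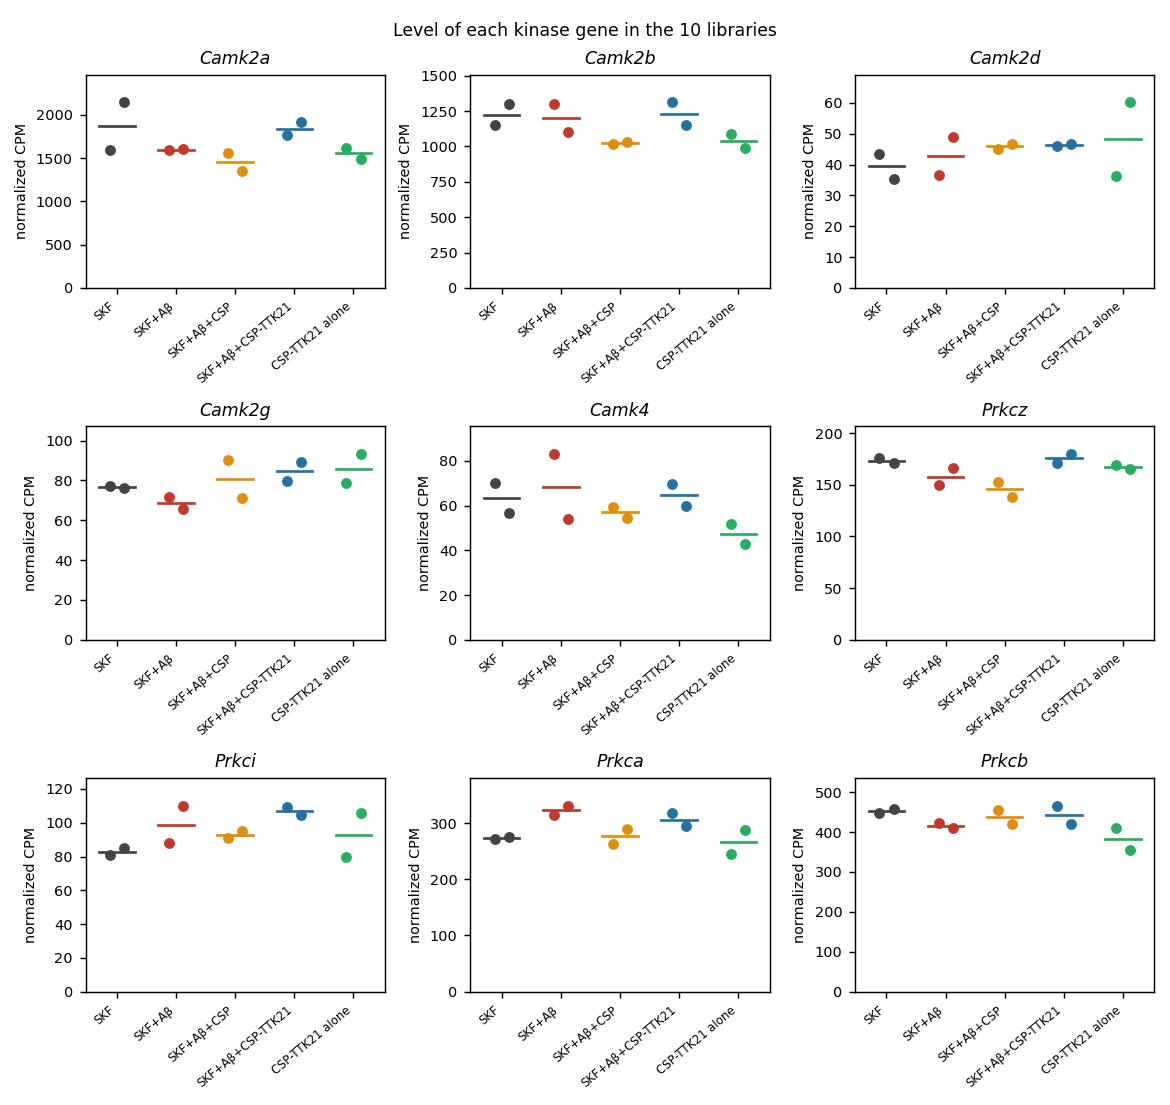
Level of the 9 kinase genes (normalized CPM, linear axes from 0, a scale of its own for each gene) in the 10 libraries. Points are libraries and lines are the means of the 2 libraries of each group. Camk2a ran from 1350 to 2146 and Camk4 from 42.9 to 83.0, and for every gene at least 1 pair of groups overlaps.

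None of the 9 kinase genes passed the test for a difference between treatments. Across the 5 groups the edgeR quasi-likelihood F test gave adjusted p from 0.449 (Camk2a) to 0.845 (Camk2d), and 0 of 9 passed, where 0.00665% of all genes tested, 1 gene, did. The unadjusted p ran from 0.123 to 0.696, with 0 of 9 under 0.05 against 14.3% of all genes. With no filter on low counts 2 of 9 were under 0.05, against 14.6% of all genes. In the 7 pairwise comparisons of groups, 0 of 9 passed an adjusted p of 0.05, with or without the limit of 1.5 on the log2 fold change. The 95% intervals of all these fold changes lay between 0.555-fold and 1.69-fold, so that a doubling or a halving of any of the 9 mRNAs was outside the interval in each comparison. Ordering the groups by mean level, the 2 libraries of each did not overlap in 6 of 36 neighbouring pairs (16.7%, against 18.1% of such pairs over all genes tested), and in none of the 36 was the unadjusted edgeR p under 0.146.

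The α and β subunit genes of CaMKII make up the neuronal holoenzyme. Camk2a (ENSRNOG00000018712) was at 1593 and 2146 normalized CPM under SKF, 1594 and 1606 with Aβ added, 1559 and 1350 with Aβ and CSP, 1767 and 1920 with Aβ and CSP‐TTK21, and 1620 and 1492 under CSP‐TTK21 alone. The 2 SKF libraries were farther apart than those of any other group, by 0.43 on the log2 scale, and the lower one was at the level of SKF+Aβ. The highest and the lowest group, SKF and SKF+Aβ+CSP, did not overlap and differed 1.28-fold. Camk2b (ENSRNOG00000052080) was at 1151 and 1299 under SKF, 1301 and 1102 with Aβ added, 1018 and 1032 with Aβ and CSP, 1311 and 1151 with Aβ and CSP‐TTK21, and 1089 and 992 under CSP‐TTK21 alone. Here SKF, SKF+Aβ and SKF+Aβ+CSP‐TTK21 overlapped, and the 4 libraries of the other 2 groups lay below all of theirs.

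The δ and γ subunits are broadly expressed, and γCaMKII can carry calmodulin to the nucleus. Camk2d (ENSRNOG00000011589) was at 43.5 and 35.4 normalized CPM under SKF, 36.5 and 49.0 with Aβ added, 45.1 and 46.6 with Aβ and CSP, 46.0 and 46.6 with Aβ and CSP‐TTK21, and 36.4 and 60.2 under CSP‐TTK21 alone. The spread within CSP‐TTK21 alone, 0.72 on the log2 scale, exceeded the range of 0.25 between group means. Camk2g (ENSRNOG00000009783) was at 77.1 and 76.2 under SKF, 71.9 and 65.9 with Aβ added, 90.0 and 71.4 with Aβ and CSP, 79.8 and 89.4 with Aβ and CSP‐TTK21, and 78.6 and 93.2 under CSP‐TTK21 alone. SKF+Aβ was the lowest group for Camk2g and overlapped only with SKF+Aβ+CSP.

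Camk4 (ENSRNOG00000020478) was at 70.2 and 56.7 normalized CPM under SKF, 83.0 and 53.8 with Aβ added, 59.2 and 54.7 with Aβ and CSP, 69.5 and 59.9 with Aβ and CSP‐TTK21, and 51.8 and 42.9 under CSP‐TTK21 alone. The CSP‐TTK21 alone libraries were the lowest of the 10, and the SKF+Aβ libraries included the highest of all and differed by 0.62 on the log2 scale. The difference of CSP‐TTK21 alone from SKF was −0.42 on the log2 scale (SE 0.20), with an edgeR p of 0.0512 before and 0.641 after adjustment. This difference was −0.27 without the first SKF library and −0.58 without the first CSP‐TTK21 alone library.

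The atypical protein kinases C share their sequence over most of the catalytic part and act in polarity complexes. Prkcz (ENSRNOG00000015480) was at 176 and 171 normalized CPM under SKF, 150 and 166 with Aβ added, 153 and 139 with Aβ and CSP, 171 and 179 with Aβ and CSP‐TTK21, and 169 and 166 under CSP‐TTK21 alone. Its within-group SD, 0.070 on the log2 scale, was the smallest of the 9 genes. Prkci (ENSRNOG00000009652) was at 80.7 and 84.9 under SKF, 87.7 and 110 with Aβ added, 90.9 and 94.98 with Aβ and CSP, 109 and 104 with Aβ and CSP‐TTK21, and 79.9 and 106 under CSP‐TTK21 alone. All 6 libraries with Aβ lay above both SKF libraries for Prkci.

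The conventional isoforms encode PKCα and PKCβ. Prkca (ENSRNOG00000003491) was at 272 and 275 normalized CPM under SKF, 315 and 330 with Aβ added, 263 and 289 with Aβ and CSP, 318 and 294 with Aβ and CSP‐TTK21, and 244 and 287 under CSP‐TTK21 alone. Prkcb (ENSRNOG00000012061) was at 449 and 458 under SKF, 423 and 410 with Aβ added, 456 and 419 with Aβ and CSP, 465 and 421 with Aβ and CSP‐TTK21, and 411 and 354 under CSP‐TTK21 alone. The SKF+Aβ libraries were above the SKF libraries for Prkca and below them for Prkcb, without overlap in either case.

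The comparison of SKF+Aβ with SKF addresses what Aβ did in slices given the agonist. No kinase gene passed the test. The 9 log2 fold changes had a median of −0.028 and ran from −0.22 to 0.25, with 4 higher and 5 lower, while the median over all genes was −0.00133. In absolute size their median was 0.14, against 0.28 over all genes tested. Prkci stood at 0.25 (SE 0.16, adjusted p 0.347 in edgeR), and Prkca stood at 0.24 (SE 0.13, adjusted p 0.276). Without the second SKF+Aβ library Prkci was at 0.065 and Prkca at 0.18, and without the first Prkci was at 0.39, so the order of these 2 rests on 1 library. Camk2a stood at −0.22 (SE 0.15) with an adjusted p of 0.391 in edgeR, and without the second SKF library its log2 fold change was 0.0065. The other values were −0.15 for Camk2g (SE 0.15), −0.14 for Prkcz (SE 0.12), −0.12 for Prkcb (SE 0.12), −0.028 for Camk2b (SE 0.13), and 0.11 for both Camk4 (SE 0.20) and Camk2d (SE 0.22). Their edgeR adjusted p lay between 0.520 and 0.918. The 2 groups did not overlap for 5 of the 9 genes (Camk2g, Prkcz, Prkci, Prkca and Prkcb), where 49.6% of all genes did not overlap; 0 of 9 passed an adjusted p of 0.05, where 2.08% of all genes did, 0.146% with the fold limit as well, and 0 of 9 had an unadjusted p under 0.05, where 22.8% did. The sums of 3 of 10 marker lists did not overlap between these groups. Dentate granule cell markers summed to between 254 and 292 normalized CPM in SKF and between 351 and 352 in SKF+Aβ, and oligodendrocyte markers to between 15340 and 22820 and between 10390 and 14750. No single gene of the dentate list separated these groups. Prox1 was at 142 to 179 in SKF and 167 to 248 in SKF+Aβ, Calb1 at 108 to 112 and 102 to 177, and Dsp overlapped as well. The 4 pyramidal neuron markers summed to between 2571 and 2632 and between 1886 and 2266, a sum carried by Slc17a7 and Nrgn, while Neurod6 of the same list was at 114 and 135 in SKF and 138 and 167 in SKF+Aβ. Their part in the kinase values was not tested.

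Taking the 3 groups with Aβ as 1 arm against SKF gave the same count, 0 of 9 at an adjusted p of 0.05, where 5.90% of all genes passed (0.160% with the fold limit) and 26.3% had an unadjusted p under 0.05. Prkci was at 0.26 (SE 0.13, p 0.0619, adjusted p 0.211 in edgeR) and Camk2a at −0.20 (SE 0.12, adjusted p 0.308). This value of Camk2a rests on 1 library, since without the second SKF library it was 0.030. Within this arm, SKF+Aβ+CSP against SKF gave the one value below 0 whose interval excluded it, Camk2a at −0.36 (SE 0.15, edgeR p 0.0317, adjusted p 0.216), 1 of 9 where 19.3% of all genes had an unadjusted p under 0.05, 0.0200% an adjusted one and 0.0133% the fold limit as well. These groups did not overlap for 5 of 9 genes (Camk2a, Camk2b, Camk2d, Prkcz and Prkci), where 52.4% of all genes did not. In this comparison 4 genes were higher and 5 lower, up to 0.22 for Camk2d, which was at 0.075 without the second SKF library. Of the higher genes, Camk2g was at −0.12 without the first SKF+Aβ+CSP library and Prkca at −0.069 without the second. The sums of 2 of 10 marker lists did not overlap between these groups. Pyramidal neuron markers were at 1901 to 2077 normalized CPM with Aβ and CSP and at 2571 to 2632 in SKF. Neurod6 of that list was at 131 and 147 with Aβ and CSP and at 114 and 135 in SKF. Dentate granule cell markers were at 313 to 346 and at 254 to 292. The part of these markers in the value of Camk2a was not tested. Without the second SKF library, Camk2a was at −0.13. The count of 1 became 0 without that library (16.7% of all genes in the same fit) or the second SKF+Aβ+CSP library (6.66%), and 2 without the first SKF library (15%) or either SKF+Aβ library (19.8% and 19.7%). In SKF+Aβ+CSP‐TTK21 against SKF, Prkci was at 0.37 (SE 0.16, edgeR p 0.0334, adjusted p 0.217), again 1 of 9 where 19.6% of all genes had an unadjusted p under 0.05 and 0.00665% an adjusted one, and the groups did not overlap for 4 of 9 against 50.5%. The count of 1 became 0 without any 1 of the SKF, SKF+Aβ+CSP or SKF+Aβ+CSP‐TTK21 libraries, fits in which 8.74% to 21.7% of all genes had an unadjusted p under 0.05. Camk2a, Camk2b, Camk4, Prkcz and Prkcb lay between −0.033 and 0.029 on the log2 scale in that comparison. Here 4 of 10 marker sums did not overlap. Dentate granule cell markers (331 to 360 normalized CPM with the loaded nanospheres) and interneuron markers (481 to 486, against 382 to 383 in SKF) were higher than in SKF. The interneuron sum was carried by Gad1 and Gad2, and Pvalb was higher too. Sst of that list was lower (24.9 to 27.2, against 27.6 to 30.1 in SKF), and Slc32a1 overlapped. Pyramidal neuron markers (2265 to 2373) and endothelial markers (43.0 to 49.3, against 59.4 to 112) were lower. The lower pyramidal sum was carried by Slc17a7 and Nrgn, while Neurod6 of that list was higher (180 and 149, against 114 and 135 in SKF). The part of these markers in the value of Prkci was not tested. These comparisons share the 2 SKF libraries, so their values are not independent.

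**Figure D2:**
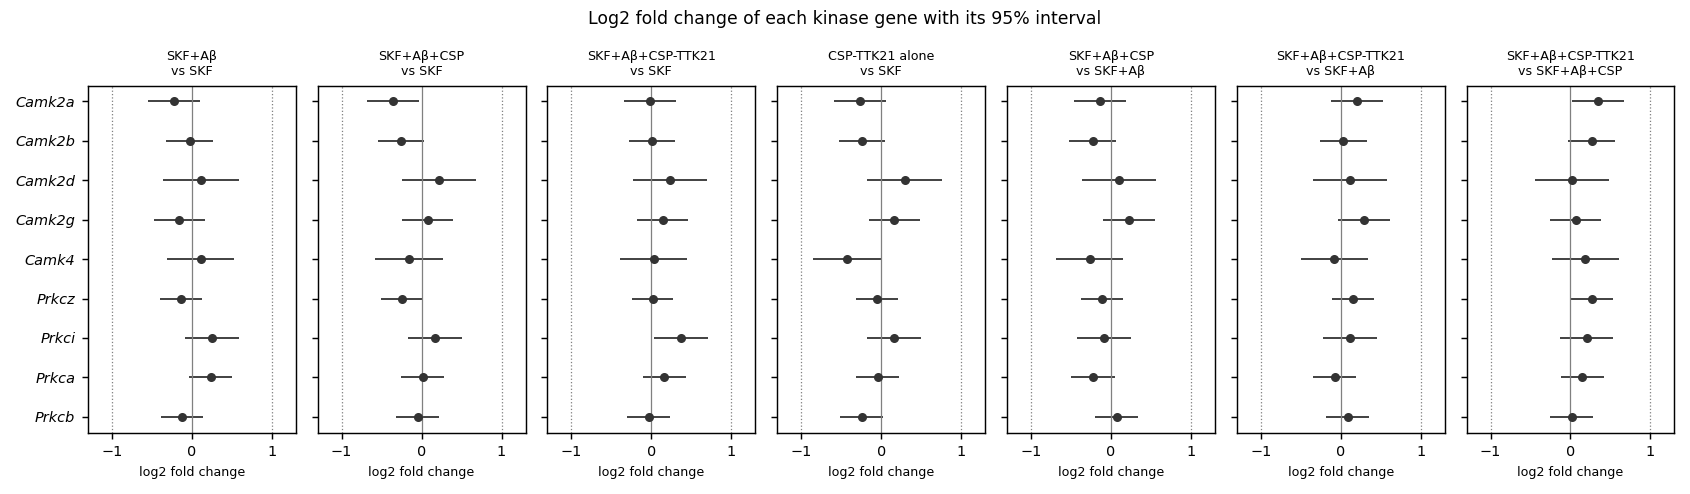
Log2 fold change of each kinase gene in 7 comparisons of groups, with its 95% interval from the edgeR fit (dotted lines at a doubling and a halving). All intervals lie between −0.85 and 0.76, and the 4 that leave out 0 are Camk2a in SKF+Aβ+CSP against SKF, Prkci in SKF+Aβ+CSP‐TTK21 against SKF, and Camk2a and Prkcz in SKF+Aβ+CSP‐TTK21 against SKF+Aβ+CSP, none of which passed after adjustment.

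The comparison of loaded with empty nanospheres, SKF+Aβ+CSP‐TTK21 against SKF+Aβ+CSP, sets slices with TTK21 beside slices with its carrier, both with Aβ. No kinase gene passed, although all 9 estimates were above 0, with a median of 0.18 on the log2 scale against 0.00853 for all genes, of which 51.1% were above 0. Camk2a was at 0.34 (SE 0.15, edgeR p 0.0408, adjusted p 0.564) and Prkcz at 0.27 (SE 0.12, edgeR p 0.0443, adjusted p 0.564). These were 2 of 9 with an unadjusted p under 0.05, where 8.78% of all genes had one, 3.17% higher and 5.61% lower, and 0.00% an adjusted one. In fits that left out 1 library the count was between 0 and 2, where 3.92% to 9.86% of all genes had such a p. With a minimum of 10 counts or with a replicate block it was 0 (8.88% and 9.91% of all genes), and with DESeq2 it was 1 (5.84%). With 1 library left out it was at 0 without the second SKF+Aβ+CSP or the first CSP‐TTK21 alone library and at 1 in 4 others, those without the other SKF+Aβ+CSP library, either SKF+Aβ+CSP‐TTK21 library or the other CSP‐TTK21 alone library. Camk2b was next at 0.26 (SE 0.13), then Prkci at 0.20 (SE 0.15), Camk4 at 0.18 (SE 0.20) and Prkca at 0.15 (SE 0.12). Without the first SKF+Aβ+CSP‐TTK21 library Camk2b was at 0.17 and Camk4 at 0.074. Camk2g at 0.065 (SE 0.15), Prkcb at 0.017 (SE 0.12) and Camk2d at 0.014 (SE 0.22) stood near 0. Camk2g was at −0.093 without the second SKF+Aβ+CSP library and at 0.24 without the first. The groups did not overlap for 6 of 9 genes, where 46.3% of all genes did not. The 9 genes are not independent measurements, since they come from the same 4 libraries, and without the second SKF+Aβ+CSP library 7 of 9 were above 0. The sums of 6 of the 10 marker lists did not overlap between these groups either, 5 of them higher with TTK21. In normalized CPM, the range with empty and then with loaded nanospheres was 1901 to 2077 and 2265 to 2373 for pyramidal neurons, and 270 to 292 and 303 to 311 for CA3 and CA2 pyramidal neurons. It was 377 to 422 and 481 to 486 for interneurons, 2818 to 3047 and 3688 to 3694 for astrocytes, and 49.1 to 59.9 and 74.4 to 111 for microglia. Endothelial markers were lower, at 78.4 to 116 and 43.0 to 49.3. Their part in the kinase values was not tested.

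Against SKF+Aβ, the other group with Aβ and no TTK21, SKF+Aβ+CSP‐TTK21 had 7 genes higher and 2 lower. The values ran from −0.080 (Camk4) to 0.29 (Camk2g, SE 0.15, edgeR p 0.0706, adjusted p 0.750), with 0 of 9 under an unadjusted p of 0.05 where 6.59% of all genes were, and no overlap for 3 of 9 where 35.9% of all genes had none. The signs of some genes turned in this comparison with 1 library left out. Without the first SKF+Aβ library Camk4 was at 0.27, Camk2d at −0.083 and Prkci at −0.039, and without the second Camk2b was at −0.077. Astrocyte markers, at 3688 to 3694 against 2923 to 3220 normalized CPM in SKF+Aβ, were higher and endothelial markers, at 43.0 to 49.3 against 57.7 to 83.0, were lower, the 2 of 10 marker sums that did not overlap. The empty nanospheres were compared with SKF+Aβ alone. There 3 genes were higher and 6 lower, from −0.26 (Camk4) to 0.23 (Camk2g), with an edgeR adjusted p of 0.9997 for each gene, 0 of 9 under an unadjusted p of 0.05 where 2.18% of all genes were, and no overlap for 3 of 9 against 27.2%. Without the first SKF+Aβ library Camk4 was at 0.0845 and Camk2d, otherwise higher, at −0.094. Prkci, otherwise lower, was at 0.088 without the second, and Camk2g was at 0.054 without the first SKF+Aβ+CSP library. The sums of 3 of 10 marker lists did not overlap between these groups. In normalized CPM, oligodendrocyte markers (16420 to 16800, against 10390 to 14750 in SKF+Aβ) and choroid plexus markers (2.24 to 2.34, against 2.08 to 2.09) were higher, and dentate granule cell markers (313 to 346, against 351 to 352) were lower. The choroid plexus sum rests on few reads. Ttr had 0 to 27 counts in a library, Folr1 1 to 18 and Kl 1 to 4, and only Ttr had enough to be tested. The dentate genes Prox1, Calb1 and Dsp each overlapped between these groups. The part of these markers in the kinase values of either comparison was not tested. Against the mean of both groups, SKF+Aβ+CSP‐TTK21 was again above 0 for 9 of 9, with a median of 0.15 and the lowest value at 0.035 (Prkca, and −0.020 without the first SKF+Aβ+CSP‐TTK21 library), Camk2a at 0.27 (SE 0.13, edgeR p 0.0539, adjusted p 0.494) and Prkcz at 0.21 (SE 0.10, p 0.0624, adjusted p 0.503). None of the 9 had an unadjusted p under 0.05, where 10% of all genes did. The count was 1 of 9 with DESeq2 (6.95% of all genes) and with no filter (8.89%). This contrast uses the same SKF+Aβ+CSP‐TTK21 libraries and adds no separate evidence. Without the first of them 6 of 9 genes were above 0, and without either SKF+Aβ library 8 of 9. CSP‐TTK21 alone had 3 genes higher and 6 lower than SKF, from Camk4 at −0.42 to Camk2d at 0.29 (SE 0.22, and −0.115 without the second CSP‐TTK21 alone library), with 0 of 9 under an unadjusted p of 0.05 where 7.78% of all genes were, and no overlap for 5 of 9 against 36.1%. Without the first CSP‐TTK21 alone library 3 of 9 had an unadjusted p under 0.05, where 12.3% of all genes in that fit had one. The count was 1 of 9 without either SKF library (4.83% and 11.1% of all genes) or either SKF+Aβ library (8.3% and 8.26%). The sums of 4 of 10 marker lists did not overlap between CSP‐TTK21 alone and SKF. In normalized CPM, interneuron markers (405 to 447, against 382 to 383 in SKF) and choroid plexus markers (2.67 to 3.33, against 0.966 to 2.53) were higher. The interneuron sum was carried by Gad1 and Gad2. Sst of that list was lower without overlap (25.3 to 27.01, against 27.6 to 30.1 in SKF), and Slc32a1 and Pvalb overlapped. The choroid plexus sum rests on the few reads given above, and Ttr overlapped. Pyramidal neuron markers (2087 to 2409, against 2571 to 2632) and oligodendrocyte markers (14110 to 14390, against 15340 to 22820) were lower. Their part in the kinase values, that of Camk4 included, was not tested.

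Ratios of counts between related genes follow subunit and isoform balance without the library scaling. The Camk2a to Camk2b ratio, which reflects the make-up of the neuronal CaMKII holoenzyme at the level of mRNA, lay between 1.22 and 1.67 in the 10 libraries, with every group overlapping another. An exact permutation test over all 945 ways to form the 5 pairs, one-sided for a large F, gave p 0.785 (adjusted over 3 ratios, 0.785). The Prkcz to Prkci ratio was 2.18 and 2.01 under SKF, 1.71 and 1.51 with Aβ added, 1.68 and 1.46 with Aβ and CSP, 1.57 and 1.72 with Aβ and CSP‐TTK21, and 2.12 and 1.56 under CSP‐TTK21 alone. Both SKF libraries were above all 6 libraries with Aβ, while 1 CSP‐TTK21 alone library fell in the SKF range and the other in the range of the libraries with Aβ. The exact permutation p was 0.266 (adjusted 0.546). The Prkca to Prkcb ratio was 0.606 and 0.601 under SKF, 0.745 and 0.806 with Aβ added, 0.577 and 0.690 with Aβ and CSP, 0.683 and 0.698 with Aβ and CSP‐TTK21, and 0.594 and 0.810 under CSP‐TTK21 alone, with an exact permutation p of 0.364 (adjusted 0.546). The smallest p this design can give is 0.00106. Counts were not divided by gene length, so a ratio compares libraries and is not a ratio of molecules.

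**Figure D3:**
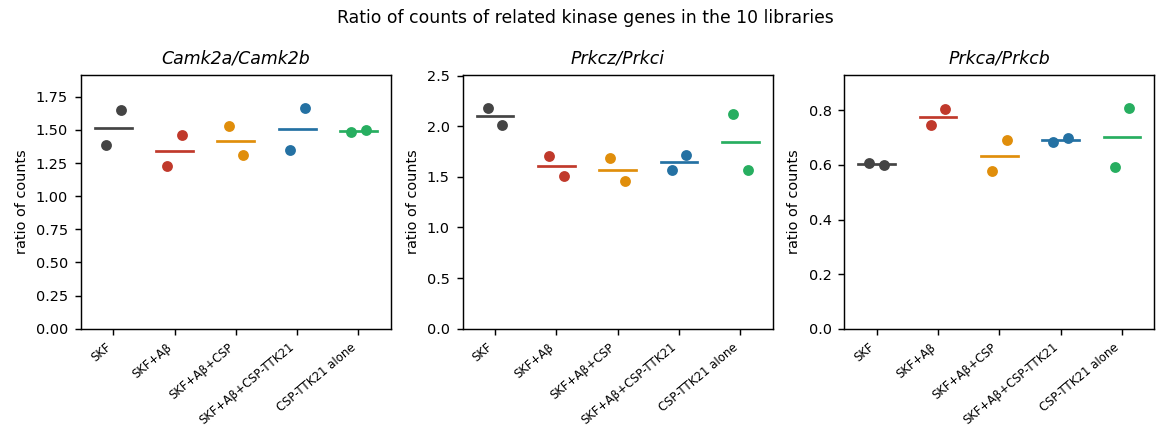
Ratio of counts of Camk2a to Camk2b, Prkcz to Prkci and Prkca to Prkcb (linear axes from 0) in the 10 libraries, with points for libraries and lines for the means of the 2 libraries of each group. The Prkcz to Prkci ratio is 2.18 and 2.01 in SKF and between 1.46 and 1.72 in the 6 libraries with Aβ.

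Genes that act with these kinases were taken as 5 lists of 57 genes in all, of which 56 were tested. In SKF+Aβ against SKF 1 of 56 (1.79%) passed an adjusted p of 0.05, near the 2.08% of all genes, and 0 passed the fold limit as well. That gene was the AMPA receptor subunit gene Gria2. An unadjusted p under 0.05 was found for 20 of 56 (35.7%), 12 higher and 8 lower, beside 22.8% of all genes. Of the 3 Aβ groups against SKF, 3 rose and 2 fell (8.93%), where 5.90% of all genes passed, and 25 of 56 (44.6%) had an unadjusted p under 0.05, where 26.3% of all genes did. In the other 7 comparisons 0 of 56 passed. The most with an unadjusted p under 0.05 in these were 16 of 56 (28.6%) in SKF+Aβ+CSP against SKF, beside 19.3% of all genes, and the fewest 0, in SKF+Aβ+CSP against SKF+Aβ, beside 2.18%. Over the 5 groups 0 of 56 passed, with the lowest p in each list at Nrgn, Prkcd, Dgkb, Ppp1r9b and Gria2. In the 3 Aβ groups against SKF the median log2 fold change was −0.16 for the 16 calmodulin and CaM kinase partners and −0.062 for the 5 other isoforms. It was 0.0096 for the protein kinase C partners, 0.17 for the phosphatase genes with their regulators and 0.11 for the postsynaptic partners, against −0.016 over all genes tested. As given above, dentate granule cell marker sums were higher and pyramidal neuron marker sums lower in each of these groups than in SKF, without overlap. The part of these markers in the partner values was not tested.

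Among CaMKII's postsynaptic partners, 1 of 11 rose in SKF+Aβ against SKF. Gria2 (ENSRNOG00000054204), the subunit that makes AMPA receptors impermeable to calcium, was at 753 and 852 normalized CPM under SKF, 1353 and 1305 with Aβ added, 1092 and 1298 with Aβ and CSP, 1308 and 1072 with Aβ and CSP‐TTK21, and 944 and 962 under CSP‐TTK21 alone. All libraries with Aβ lay above the other 4. Its log2 fold change was 0.73 (SE 0.14, adjusted p 0.0355 in edgeR) for SKF+Aβ and 0.62 (SE 0.12, adjusted p 0.0199) for the 3 Aβ groups. The first no longer passed an adjusted p of 0.05 with only the 4 libraries of the 2 groups in the fit (0.73, adjusted p 0.0958) and in 5 of 10 fits that left out 1 library, the first SKF library or any 1 of the SKF+Aβ and SKF+Aβ+CSP libraries (0.62 to 0.73, adjusted p 0.0598 to 0.147). SKF+Aβ+CSP‐TTK21 against SKF+Aβ+CSP gave −0.00600 (SE 0.14) for Gria2.

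Of the 16 calmodulin and CaM kinase partners, 1 fell in the 3 Aβ groups against SKF. Nrgn (ENSRNOG00000010688), neurogranin, which holds calmodulin at low calcium and is a substrate of protein kinase C, was at 1028 and 940 normalized CPM under SKF, 710 and 716 with Aβ added, 680 and 652 with Aβ and CSP, 809 and 821 with Aβ and CSP‐TTK21, and 804 and 724 under CSP‐TTK21 alone. It fell by 0.43 on the log2 scale (SE 0.095, adjusted p 0.0287 in edgeR). The SKF libraries were above all others, and the CSP‐TTK21 alone libraries, which had no Aβ, were among the rest. Nrgn is also one of the 4 pyramidal neuron markers above. For loaded against empty nanospheres it was at 0.29 (SE 0.12, edgeR p 0.0295, adjusted p 0.556), higher in both loaded libraries than in both empty ones.

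Of 14 protein kinase C partners tested, 1 rose. Dgkb (ENSRNOG00000030771), a diacylglycerol kinase that removes the lipid that conventional isoforms need, was at 158 in both SKF libraries and between 204 and 290 in the 6 libraries with Aβ, a change of 0.58 (SE 0.14, adjusted p 0.0365 in edgeR). The CSP‐TTK21 alone libraries, at 187 and 245, overlapped those with Aβ. Of the 5 other isoforms 0 passed. The lowest 5-group p among them, 0.0652, was at Prkcd, with 21.4 and 11.3 normalized CPM in SKF, 16.9 and 15.9 in CSP‐TTK21 alone and between 9.97 and 12.9 with Aβ.

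The phosphatases calcineurin and protein phosphatase 1 oppose the kinases. Of 10 genes of their subunits and regulators, 1 rose and 1 fell in the 3 Aβ groups against SKF. Ppp1r9b (ENSRNOG00000052113), the spine scaffold spinophilin that targets phosphatase 1, was at 1569 and 1505 normalized CPM under SKF, 976 and 1056 with Aβ added, 1106 and 961 with Aβ and CSP, 1067 and 1530 with Aβ and CSP‐TTK21, and 1296 and 1203 under CSP‐TTK21 alone. It fell by 0.47 on the log2 scale (SE 0.13, adjusted p 0.0479 in edgeR), and 1 library of SKF+Aβ+CSP‐TTK21 was at the level of SKF. The catalytic subunit gene Ppp1cc (ENSRNOG00000001269), named after its values were seen, was at 117 and 136 in SKF, between 152 and 183 with Aβ, and 135 and 146 in CSP‐TTK21 alone, a change of 0.41 (SE 0.11, adjusted p 0.0484 in edgeR). With RLE in place of TMM scaling Ppp1cc had an adjusted p of 0.0504. In fits that left out 1 of the 10 libraries, an adjusted p of 0.05 was no longer passed for the 3 Aβ groups in 2 fits for Gria2, 3 for Nrgn, 5 for Dgkb, 8 for Ppp1r9b and 9 for Ppp1cc. None of the 5 passed without the first SKF library, where the log2 fold change was 0.52 for Gria2 (edgeR adjusted p 0.164), −0.38 for Nrgn (0.184), 0.57 for Dgkb (0.199), −0.46 for Ppp1r9b (0.221) and 0.29 for Ppp1cc (0.340). None of the 5 passed without the second SKF+Aβ+CSP library either, with edgeR adjusted p from 0.0776 (Gria2) to 0.139 (Ppp1cc). Gria2 alone of the 5 passed without the first SKF+Aβ+CSP‐TTK21 library. Dgkb, Ppp1r9b and Ppp1cc did not pass without the second SKF library or the first SKF+Aβ+CSP library. Neither Ppp1r9b nor Ppp1cc passed without the first SKF+Aβ library or without either CSP‐TTK21 alone library. Ppp1cc did not pass without the second SKF+Aβ library.

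**Figure D4:**
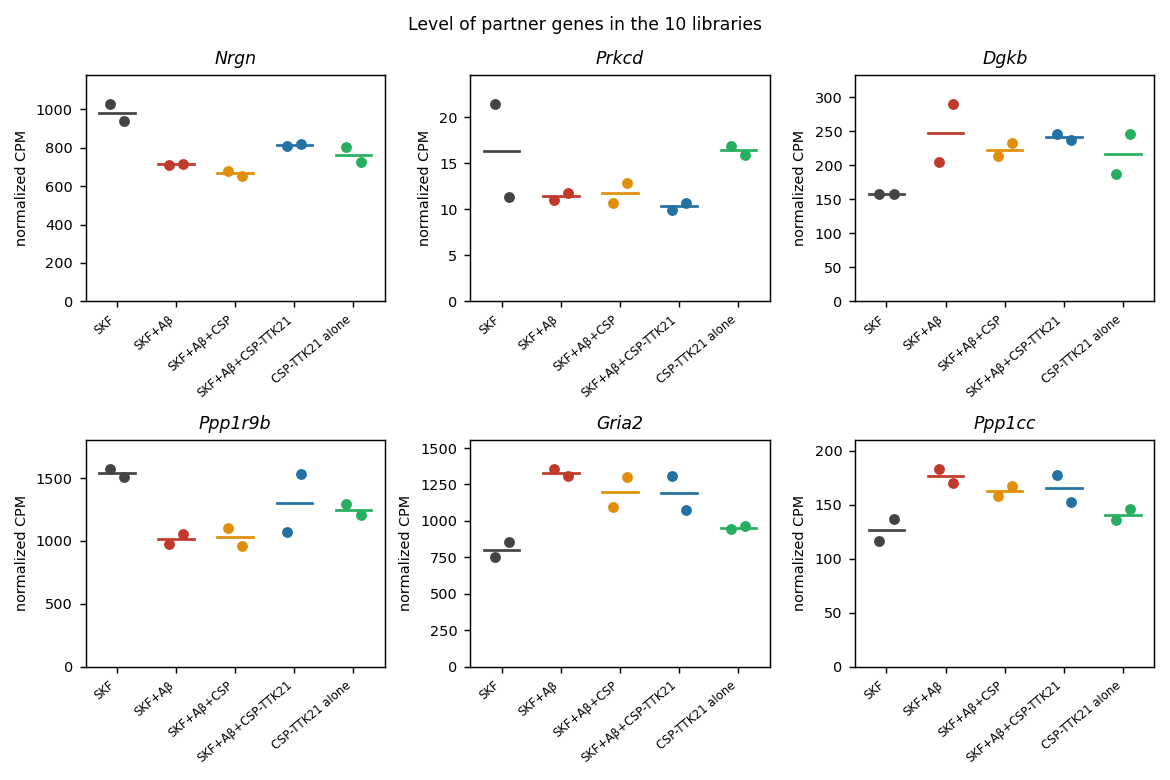
Level of 6 genes that act with the kinases (normalized CPM, linear axes from 0) in the 10 libraries, with points for libraries and lines for the means of the 2 libraries of each group. Gria2 is at 753 and 852 in SKF and at 1072 or above in the 6 libraries with Aβ, and Nrgn is at 940 and 1028 in SKF and at 821 or below elsewhere.

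Over the 10 libraries the kinase genes did not move as 1 block. The highest Pearson r of log2 CPM among them were 0.74 for Camk2d with Prkci, 0.72 for Prkci with Prkca and 0.72 for Camk2b with Camk4, Camk2a with Camk2b stood at 0.67, and the lowest was −0.61 for Camk2b with Camk2d. These describe 10 libraries that share groups and scaling, and library differences within groups enter them. By the same measure, the tested genes most like Camk2a were Ucp2 (0.95), Nf2 (0.94) and Cnih2 (0.94). Those most like Camk2b were Pcdh1 (0.93), Rgs14 (0.92) and Hpca (0.90), and those most like Camk2d were Mcu (0.93), Csgalnact1 (0.91) and Eda (0.91). Camk2g was nearest to Nudcd2 (0.89), Ptprc (0.88) and Tmem186 (0.87), and Camk4 to SNORA42 (0.91), Mapkapk5 (0.91) and Uck2 (0.88). Prkcz was nearest to Asb1 (0.97), Prkaca (0.96), the catalytic subunit of protein kinase A, and Uqcrh (0.95). Prkci was nearest to Ndufs1 (0.98), Nkiras1 (0.98) and Vdac3 (0.98), of which Ndufs1 and Vdac3 are mitochondrial proteins. Prkca was nearest to ENSRNOG00000056151 (0.97), Pik3c3 (0.94) and LOC100364190 (0.94), and Prkcb to Gal (0.93), Fzd7 (0.92) and Vrk3 (0.90). Each was picked as the highest over all genes tested, in 10 libraries, and carries no test.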

How the data were processed

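Per the sources, rRNA-depleted stranded libraries (KAPA RiboErase) were sequenced paired end. The values the authors deposited are raw read counts, whole numbers for each Ensembl gene of the rat, 1 column per library. The paper's methods name Trim Galore, Samtools duplicate removal, TopHat2 and Cufflinks with Rnor_6.0 and also mm10, and the submitters' processing notes name STAR, HISAT2, RSEM, Salmon and GRCh38 without a role. The counter, its annotation and its use of strand are not given in the sources used here, so reads shared by related or overlapping genes are uncertain.

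Groups and replicate numbers came from the labels. Genes passing filterByExpr (15032 of 32545) were fitted in 1 edgeR (4.0.16, R 4.3.3) quasi-likelihood model of the 10 libraries with TMM scaling and no covariate, and p-values were adjusted by Benjamini-Hochberg over all genes tested. A gene was called at an adjusted p under 0.05 with a log2 fold change beyond 1.5, and counts without the fold limit are also given. Replicates of each group differed by more than sampling noise. Alternatives were RLE scaling, DESeq2 (1.42.0), limma-trend (3.58.1), no filter, a minimum of 10 counts, a replicate block, the 4 libraries compared only, and leaving out each library. Marker sums were scaled by the totals over all genes. Scripts were tested on simulated data. A deposited count of 0 allows up to 0.354 to 0.444 CPM per library (3 counts), for counting error only.

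Members, lists and comparisons were chosen with earlier results of these data known. All 9 kinase genes are described, with every value of SKF+Aβ against SKF and other comparisons where the unadjusted p was under 0.05, plus the extremes of each comparison of groups. Of each partner list, genes passing an adjusted p of 0.05 and the gene of lowest 5-group p are named.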

Additional observations from a re-analysis of the deposited data

How the results depend on the processing

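No kinase gene was called in any comparison or over the 5 groups in any alternative run; the lowest adjusted p in any was 0.0782 (Camk2a, SKF+Aβ+CSP against SKF, no filter). For SKF+Aβ against SKF the sign of 4 genes turned when 1 library was left out, with log2 fold changes from −0.44 to 0.0065 for Camk2a, −0.17 to 0.068 for Camk2b, −0.13 to 0.30 for Camk2d and −0.25 to 0.37 for Camk4, and the cause was not tested. Leaving out 1 library moved the exact permutation p of the ratios between 0.541 and 0.956 (Camk2a to Camk2b), 0.0688 and 0.500 (Prkcz to Prkci) and 0.0720 and 0.651 (Prkca to Prkcb). In SKF+Aβ+CSP‐TTK21 against SKF+Aβ+CSP, 7 to 9 of the 9 genes were higher in every alternative, and against the mean of SKF+Aβ and SKF+Aβ+CSP 6 to 9. In fits that left out 1 library, kinase genes with an unadjusted p under 0.05 numbered 0 to 3 for CSP‐TTK21 alone against SKF (2.07% to 12.3% of all genes) and 0 to 2 for loaded against empty nanospheres (3.92% to 9.86%), for SKF+Aβ+CSP against SKF (6.66% to 19.8%) and against SKF+Aβ (1.45% to 4.72%). They numbered 0 to 1 for SKF+Aβ (16.5% to 22.1%), or loaded nanospheres with it (8.74% to 21.7%), against SKF. For loaded against empty nanospheres 2 became 0 with a minimum of 10 counts (8.88%) and 1 with DESeq2 (5.84%). With no filter 0 became 2 over the 5 groups (14.6%) and for CSP‐TTK21 alone against SKF (6.88%). In that fit 1 became 2 for SKF+Aβ+CSP against SKF (13.6%). It also moved 0 to 1 for SKF+Aβ (16.4%) and for the 3 Aβ groups (18.7%) against SKF.

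Correlations of the deviations of same-numbered libraries ran from −0.07 to 0.24 over the pairs of groups, and 4 of 10 were over 0.1, so that not every pair passed and the numbers were not taken to pair the libraries. With a replicate block 0 of 9 kinase genes were called in each comparison, the lowest adjusted p being 0.173 (Prkci, SKF+Aβ+CSP‐TTK21 against SKF), and those with an unadjusted p under 0.05 went from 2 to 0 for loaded against empty nanospheres (9.91% of all genes) and from 0 to 1 for CSP‐TTK21 alone (8.77%) and for the 3 Aβ groups (27.4%) against SKF and over the 5 groups (16.3%). Partner genes past an adjusted p of 0.05 in SKF+Aβ against SKF went from 1 to 2 (2.83% of all genes). The exact permutation p of the ratios went with the replicate block from 0.785 to 0.703 (Camk2a to Camk2b), from 0.266 to 0.0984 (Prkcz to Prkci) and from 0.364 to 0.139 (Prkca to Prkcb).

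The number of the 56 partner genes passing an adjusted p of 0.05 depended on the method, as did that over all genes, given in parentheses for the same fit. In SKF+Aβ against SKF it was 7 with DESeq2 (5.44%), 9 with no filter (5.19%) and 0 with 4 libraries (0.0833%), and 0 to 2 with 1 library left out (0.00644% to 1.92%). For the 3 Aβ groups 5 became 10 with DESeq2 (8.02%), 13 with no filter (7.5%) and 0 to 8 with 1 library left out (0.0705% to 6.3%). For SKF+Aβ+CSP against SKF 0 became 5 with either (3.03% and 2.99%). For SKF+Aβ+CSP‐TTK21 against SKF 0 became 2 with DESeq2 (2.2%), 5 with no filter (3.57%) and 0 to 3 with 1 library left out (0% to 2.14%). Over the 5 groups 3 passed with DESeq2 (2.57%) and 8 with no filter (5.55%). With 2 libraries a group, each kinase gene's fold change is known only to within its interval.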
